A study of Homo sapiens with 6 samples.

Results

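Noncoding genes that host small RNAs were compared between SW480 cells, an established human colorectal adenocarcinoma line, that had received a control siRNA (siNC, labelled wild type) and SW480 cells that had received an siRNA against ZEB1 (siZEB1, labelled as a knockdown of ZEB1). Each group held 3 cultures, described by the study as biological replicates, and total RNA was taken 48 h after transfection and sequenced. All 6 cultures were thus transfected with an siRNA, the number of siRNAs against ZEB1 is not given in the sources used here, and a knockdown leaves part of the ZEB1 RNA in place. The members were chosen by name: every gene called SNHG with a number, every gene whose symbol starts with MIR and ends with HG, and GAS5, NEAT1, MALAT1, EPB41L4A-AS1 and ZFAS1. Of the 32029 genes in the count tables, 75 matched, 25 of them SNHG genes and 45 of them MIR genes ending in HG. A gene was tested where at least 3 of the 6 cultures held 10 or more reads, which 43 of the 75 members passed (20 SNHG genes, 18 MIR genes ending in HG and all 5 named singly) and 32 did not, and 15187 genes passed in the whole table.

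Small nucleolar RNAs (snoRNAs) guide the chemical modification of ribosomal RNA: C/D box snoRNAs guide ribose methylation and H/ACA box snoRNAs guide pseudouridylation. In human cells most of them lie in introns of longer host transcripts and are freed when the spliced intron is trimmed, so that the exons of a noncoding host such as GAS5 or SNHG1 are what remains for long-RNA sequencing, and many of these spliced hosts are short-lived because they are translated and degraded by nonsense-mediated decay. MicroRNA host genes carry a hairpin that DROSHA cuts from the nuclear transcript and DICER1 trims to the mature microRNA. NEAT1 is the architectural RNA of paraspeckles and MALAT1 is an abundant RNA of nuclear speckles. ZEB1, the targeted gene, is a zinc finger repressor of epithelial genes that binds E-box letters and is known for mutual repression with the microRNA-200 family.

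The mature microRNAs of the hosts on which the results turn are shown with the seed, bases 2 to 8 from the start, in capitals, since the seed decides which targets a microRNA pairs with. RefSeq (GRCh38.p14) held a mature sequence for 33 of the 34 microRNA genes inside tested members. The sequences are those of hosts called lower, of hosts called higher and, last, of MIR200CHG, which carries members of the microRNA-200 family. Of the tested hosts, MIR100HG, MIRLET7BHG and the uncalled MIR4458HG carry the let-7 seed in GENCODE 29, the gene annotation used. MIRLET7A1HG, named for a let-7 microRNA, has no microRNA drawn inside it there and was not called (log2 0.18, adjusted p = 0.336). MIR100HG alone of the called hosts also carries the seeds of microRNA-100 and microRNA-125b.
let-7a-5p (MIR100HG, chr11:122146568-122146589, minus strand; also MIRLET7BHG, chr22:46112752-46112773, plus strand): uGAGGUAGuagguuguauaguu
let-7b-5p (MIRLET7BHG, chr22:46113691-46113712, plus strand): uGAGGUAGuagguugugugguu
miR-4458 (MIR4458HG, chr5:8460933-8460951, plus strand): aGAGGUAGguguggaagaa
miR-100-5p (MIR100HG, chr11:122152275-122152296, minus strand): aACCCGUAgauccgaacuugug
miR-125b-5p (MIR100HG, chr11:122099809-122099830, minus strand): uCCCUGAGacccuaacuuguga
miR-4435 (MIR4435-2HG, chr2:111321061-111321082, minus strand): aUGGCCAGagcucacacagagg
miR-600 (MIR600HG, chr9:123111561-123111583, minus strand): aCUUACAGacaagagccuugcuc
miR-22-3p (MIR22HG, chr17:1713914-1713935, minus strand): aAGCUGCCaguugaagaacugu
miR-1915-3p (MIR1915HG, chr10:21496576-21496595, minus strand): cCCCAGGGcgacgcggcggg
miR-200c-3p (MIR200CHG, chr12:6963742-6963764, plus strand): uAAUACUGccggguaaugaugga
miR-141-3p (MIR200CHG, chr12:6964155-6964176, plus strand): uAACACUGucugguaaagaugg

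Transcripts of the translation machinery, and many snoRNA hosts, are known to begin with a C followed by a run of pyrimidines, the terminal oligopyrimidine start. A start of that kind, here a C at the annotated start followed by 4 bases that are each C or T on the gene's own strand, was found in 6 of the 20 snoRNA hosts tested that had a RefSeq promoter window (30.0%), in 0 of 17 microRNA hosts tested and in 5.14% of the 27305 genes with a window. The stretches below run from 10 bases before the start, 30 bases in all, with the pyrimidine run from the start in capitals. They are shown because these 6 hosts share the start and went different ways: SNHG12 was called higher, SNHG4 was called lower and SNHG5, SNHG19, SNHG32 and ZFAS1 were not called.
SNHG12 (chr1:28581854-28581883, minus strand): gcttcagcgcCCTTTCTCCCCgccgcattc
SNHG4 (chr5:139274091-139274120, plus strand): ctcccggctgCCCTTTCCCCTCCggcctct
SNHG5 (chr6:85678714-85678743, minus strand): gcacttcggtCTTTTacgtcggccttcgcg
SNHG19 (chr16:2155339-2155368, minus strand): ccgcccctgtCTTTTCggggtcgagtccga
SNHG32 (chr6:31834906-31834935, plus strand): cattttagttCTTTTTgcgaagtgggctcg
ZFAS1 (chr20:49278632-49278661, plus strand): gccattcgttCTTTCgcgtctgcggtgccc

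The 6 libraries held 19040636 to 22357633 reads in genes, and 0.214% to 0.228% of these lay on the 75 members. ZEB1 itself had 1247, 1276 and 908 reads in siNC and 136, 132 and 162 in siZEB1, with a log2 fold change of −2.85 (adjusted p = 3.49e-12, SE 0.108); every siZEB1 culture lay below every siNC culture. Of 9 markers of colorectal epithelial cells, 8 had reads, and their summed level was 4823 to 5443 CPM, the usual scaling of a read count to the size of its library, in siNC and 5388 to 5992 in siZEB1. That sum is mostly KRT8 and KRT18, and single markers differed widely: CDH1 had 26 to 54 reads in siNC and 540 to 606 in siZEB1, EPCAM 1008 to 1273 and 8370 to 8858, VIL1 75 to 94 and 371 to 429, and KRT19 1410 to 1589 and 3891 to 4451, while CDX2 had 2023 to 2312 and 760 to 862. The part of these differences in the host genes was not tested. Fibroblast markers summed to 13.3 to 14.9 CPM in either group, endothelial markers to 1.52 to 2.73 CPM and immune markers to under 1 CPM. Mitochondrial genes took 3.60% to 4.03% of the reads. In these bulk cultures, fewer cells that express a gene and less RNA of it per cell cannot be told apart.

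Among the 43 members tested, 7 were higher and 6 were lower in siZEB1 at an adjusted p under 0.05 in edgeR's quasi-likelihood test. These 13 are 30.2% of the members, while 39.8% of all 15187 genes tested were called (18.8% higher and 21.0% lower), a larger share than among the host genes. The median log2 fold change was −0.02 over the members and −0.01 over all genes, and the median size of the change was 0.18 against 0.25. The cultures of the 2 groups did not overlap in CPM for 18 members (41.9%), against 49.2% of all genes. Among the other long noncoding genes tested, 308 of 1583 (19.5%) were called. At a mean of at least 100 CPM, 4 of 8 members (50%) and 1134 of 2376 genes (47.7%) were called. MIR100HG and the uncalled MIR29B2CHG entered the test only through their reads in siNC, so that a difference was built into their selection; without these, 7 of 41 members were higher and 5 were lower. In at least 1 of 13 refits, 3 of the 6 lower calls (MIR100HG, MIR600HG and SNHG4) and 3 of the 7 higher calls (GAS5, SNHG20 and MIR1915HG) were lost. DESeq2, and leaving out siZEB1 replicate 1, each kept 3 lower calls (NEAT1, MIRLET7BHG and MIR4435-2HG). A rule of a fold above 1.5 with an unadjusted p under 0.05 was met by 2511 of all 15187 genes tested (16.5%). Among the 43 members it gave 3 lower and 0 higher. These were NEAT1 and the pair that passed through siNC alone, MIR100HG and MIR29B2CHG. Without the pair, 1 member met that rule.

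By class, 5 of the 23 snoRNA hosts were higher and 1 was lower (26.1% called), and 2 of the 18 microRNA hosts were higher and 4 were lower (33.3%), or 2 and 3 of 16 without the pair that passed through siNC alone. The share called over all genes tested was 39.8%. Changes of the snoRNA hosts were small, with log2 fold changes between −0.20 and 0.50, and no snoRNA host passed a fold of 1.5. The microRNA hosts spanned −1.50 to 0.43 on the log2 scale.

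**Figure D1:**
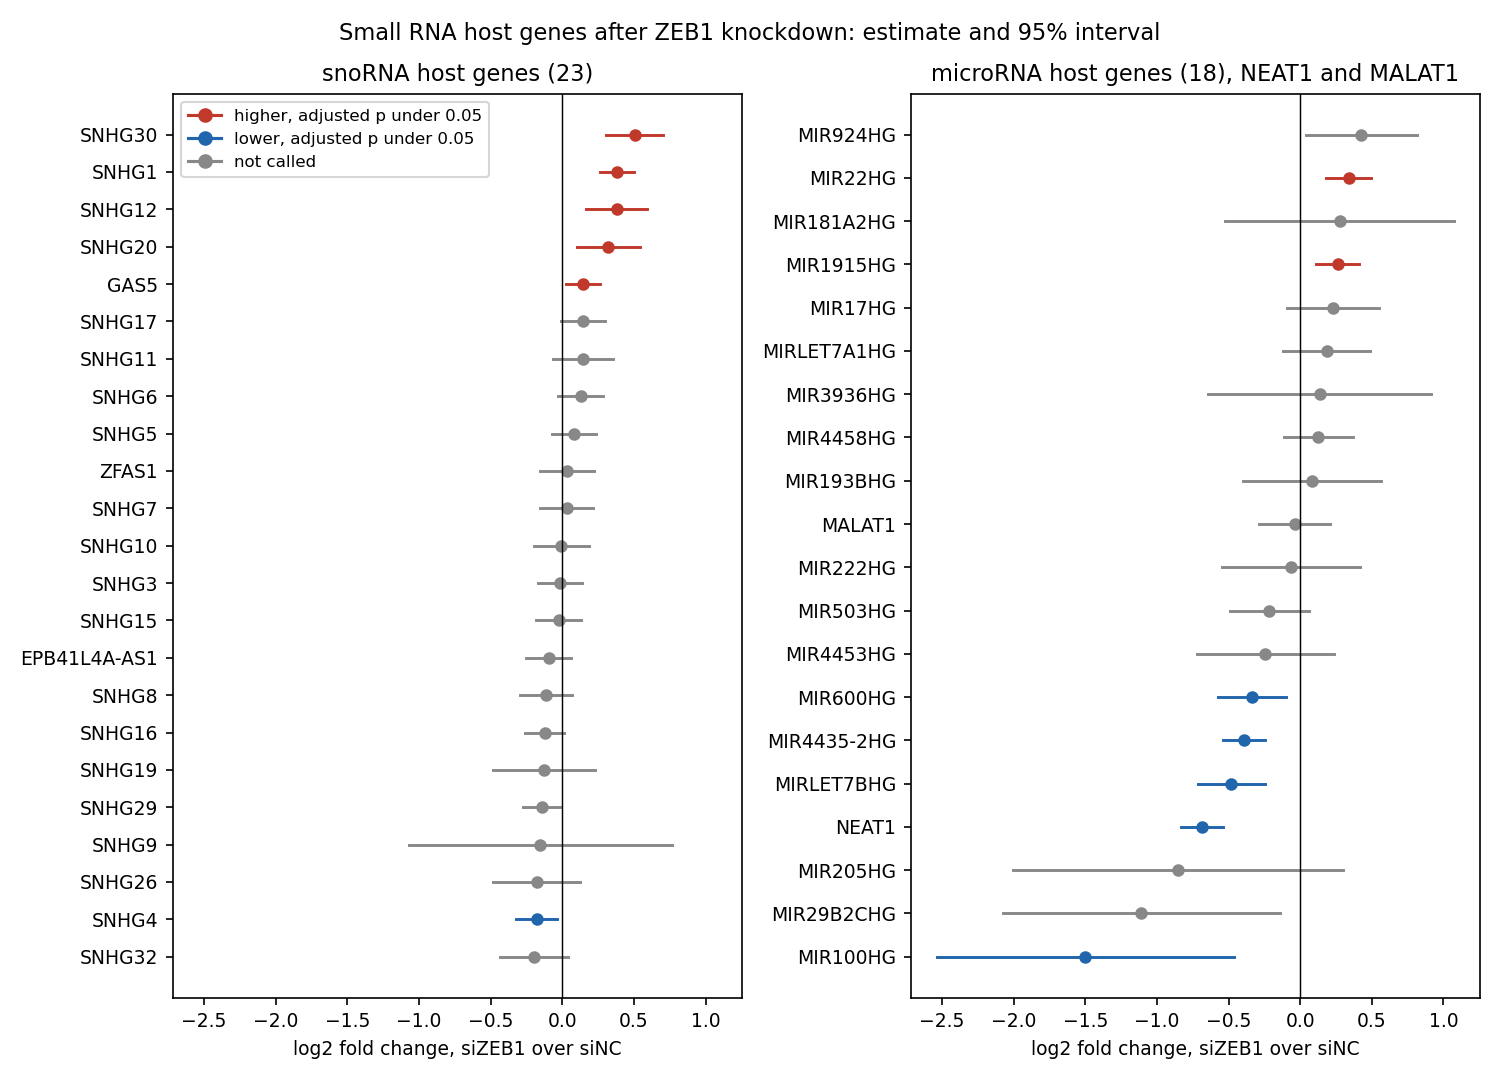
Log2 fold change of siZEB1 over siNC (x axis) for the 43 members tested, 1 row a gene, with points for the estimate and lines for its 95% interval; red marks members called higher, blue lower and grey those not called. The 23 snoRNA hosts lie between −0.20 and 0.50, while the widest intervals belong to low-read genes such as MIR100HG and MIR205HG.

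Levels can be compared between genes only per length, here as CPM per kilobase of annotated exon. The exons of all transcripts of a gene were merged for this. Of the 50 snoRNA or Cajal body guide genes inside tested members, 33 overlap such exons. The order of the levels thus depends in part on the annotation. SNHG5, host of C/D snoRNAs, had the highest level in siNC, 98.3 ± 4.39 CPM per kilobase (SD, n = 3). GAS5 followed at 61.7 ± 1.19, and SNHG29 at 48.5 ± 1.78 and SNHG1 at 47.5 ± 1.54 came next and lay within a spread of each other. SNHG6 stood at 33.9 ± 1.21 and SNHG8 at 30.6 ± 1.87 CPM per kilobase. MALAT1 was ninth, MIR22HG the highest microRNA host at 12.6 CPM per kilobase, and MIR100HG the lowest of the 43 at 0.0341 CPM per kilobase.

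**Figure D2:**
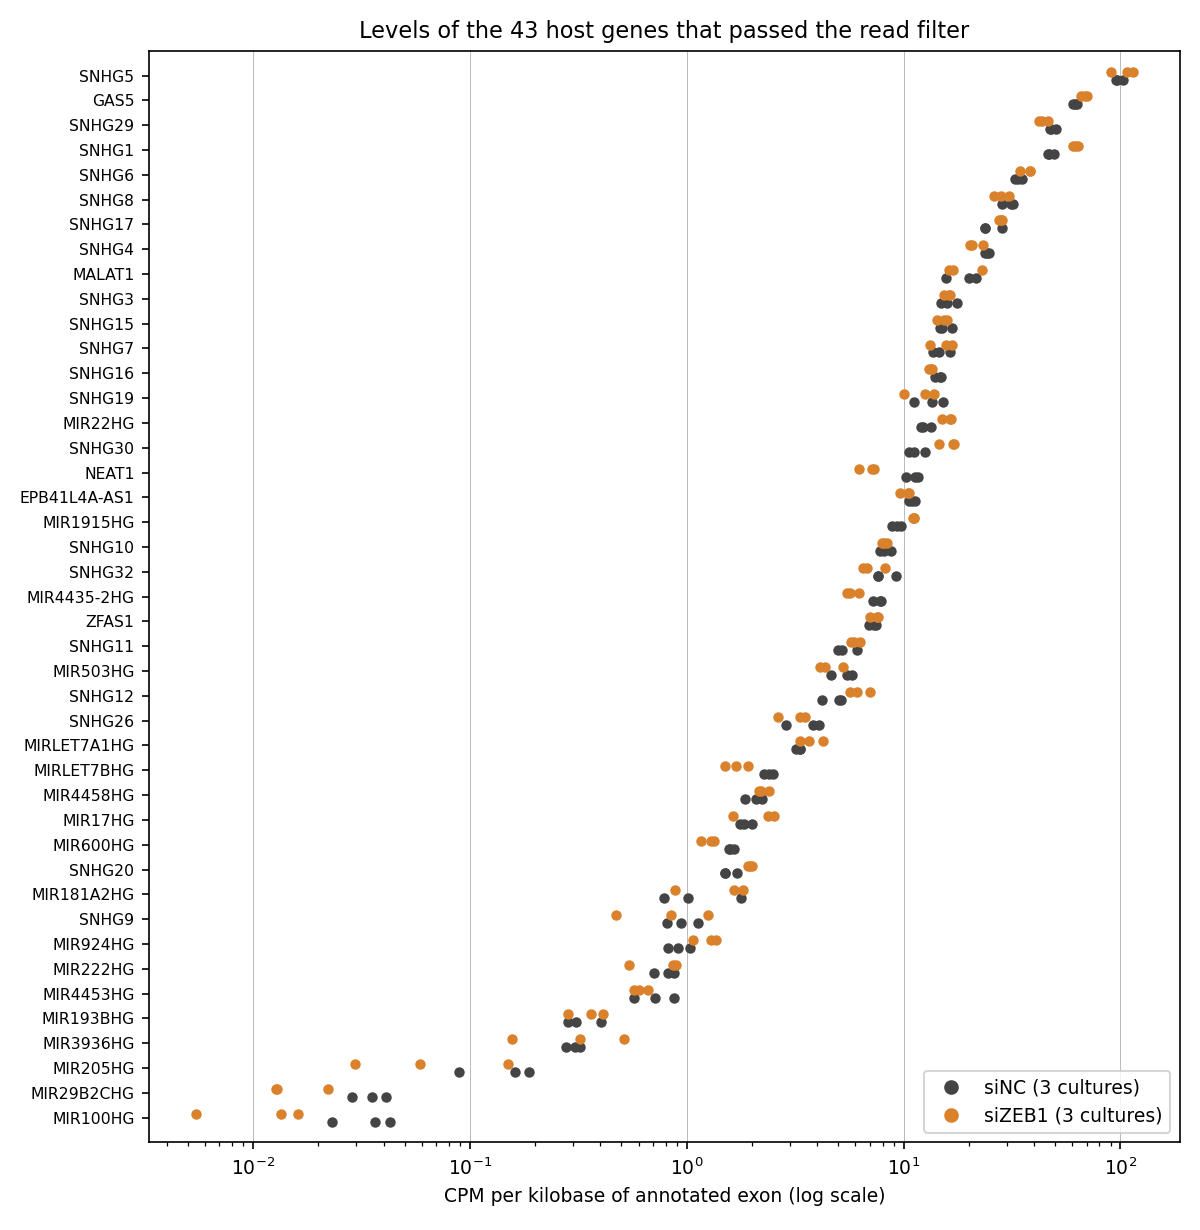
Level of each of the 43 members tested in CPM per kilobase of annotated exon (log scale, x axis), 1 row a gene in the order of its mean in siNC, with 3 points for the siNC cultures in dark grey and 3 for the siZEB1 cultures in orange. SNHG5 stands at the top with 98.3 CPM per kilobase in siNC, and the siZEB1 points of NEAT1 lie to the left of its siNC points.

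The snoRNA hosts that were higher were led by SNHG30, SNHG1 and SNHG12. SNHG30 (chr17:35568109-35574843, plus strand), host of the C/D snoRNA SNORD7, had 357, 357 and 365 reads in siNC and 479, 496 and 421 in siZEB1. Its level went from 17.2 ± 1.54 to 24.4 ± 2.08 CPM (SD, n = 3), a log2 fold change of 0.50 (adjusted p = 0.000407, SE 0.095), and all siZEB1 cultures lay above all siNC cultures.

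SNHG1 (chr11:62851988-62855914, minus strand) carries a row of C/D snoRNAs along its length, SNORD25 to SNORD28 among them. Its reads were 3714, 3933 and 3568 in siNC and 4266, 4589 and 4443 in siZEB1. In CPM it rose from 178 ± 5.78 to 232 ± 6.36, a log2 fold change of 0.38 (adjusted p = 4.47e-05, SE 0.057). The siZEB1 cultures, at 226.0 to 238.7 CPM, stood clear of the siNC cultures at 174.5 to 185.0. SLC3A2, which encodes the heavy chain of amino acid transporters, starts 188 bp from the start of SNHG1 on the opposite strand and rose as well, from 933 ± 53.5 to 1327 ± 76.3 CPM (log2 0.51, adjusted p = 1.72e-06). Whether the neighbouring start has a part in the change of SNHG1 was not tested.

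SNHG12 (chr1:28578538-28583132, minus strand), which carries both C/D and H/ACA snoRNAs, had 382, 482 and 425 reads in siNC and 491, 572 and 463 in siZEB1. It rose from 20.5 ± 2.23 to 26.7 ± 2.83 CPM, log2 0.38 (adjusted p = 0.00575, SE 0.100), with no overlap between the groups. SNHG20 (chr17:77086716-77099902, plus strand) hosts SCARNA16, a guide RNA of Cajal bodies, and had 194, 232 and 177 reads in siNC against 226, 234 and 224 in siZEB1. Its log2 fold change was 0.32 (adjusted p = 0.0205, SE 0.104), and the adjusted p reached 0.0635 when siNC replicate 1 was left out; without siZEB1 replicate 1 or 2 the call was lost too. Of the exon length of SNHG20, 10.7% is shared with other genes on the same strand, its own small RNAs included, and SEC14L1, which overlaps it, went the other way (log2 −0.41, adjusted p = 7.12e-05).

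GAS5 (chr1:173863900-173868882, minus strand), a host transcript known to build up when cells stop growing, was called at the edge of the threshold. Its reads were 4782, 5100 and 4227 in siNC and 4719, 4602 and 4859 in siZEB1, or 219.2 to 227.8 CPM against 239.4 to 253.9 CPM. The groups did not overlap, and the log2 fold change was 0.15 (adjusted p = 0.0447, SE 0.055). Leaving out any of the 6 cultures ended the call, while the estimate stayed between 0.13 and 0.17.

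SNHG4 was the snoRNA host called lower. SNHG4 (chr5:139274102-139284899, plus strand), host of the H/ACA snoRNA SNORA74A, had 2259, 2475 and 2081 reads in siNC and 1699, 1775 and 1998 in siZEB1. Its level was 108 ± 2.20 CPM in siNC and 95.6 ± 7.73 in siZEB1, with a log2 fold change of −0.18 (adjusted p = 0.0468, SE 0.069). All siZEB1 cultures lay below the siNC cultures, but leaving out siNC replicate 1, siNC replicate 2, siZEB1 replicate 1 or siZEB1 replicate 2 ended the call, with adjusted p values up to 0.220. Exons of SNHG4 overlap those of MATR3 on the same strand over part of their length, so reads could be assigned to either gene or dropped. Of the exon length of SNHG4, 14.0% is shared with genes on that strand, while its own snoRNAs lie in introns. The MATR3 entry that was tested had few reads, 2.11 ± 0.372 CPM in siNC and 2.48 ± 0.404 in siZEB1 (adjusted p = 0.439). Another MATR3 entry, which starts 350 bp from SNHG4 on the same strand, did not pass the read filter. These values may therefore not hold all reads of MATR3.

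The other 17 snoRNA hosts tested were not called. SNHG6 had 870, 941 and 846 reads in siNC and 903, 918 and 821 in siZEB1, with a log2 fold change of 0.13 (95% interval −0.03 to 0.28, adjusted p = 0.182). ZFAS1, host of C/D snoRNAs, had 331, 374 and 315 reads against 322, 326 and 301, and its log2 fold change was 0.03 (95% interval −0.16 to 0.22, adjusted p = 0.798). The gene that starts 248 bp from ZFAS1 on the other strand, ZNFX1, fell (log2 −0.35, adjusted p = 0.000371), and 26.1% of the exon length of ZFAS1 lies opposite other exons.

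EPB41L4A-AS1, host of an H/ACA snoRNA, had 756, 819 and 725 reads in siNC and 670, 672 and 616 in siZEB1, log2 −0.10 (95% interval −0.25 to 0.06, adjusted p = 0.333). Of its exon length, 49.6% lies opposite exons of EPB41L4A, which fell (log2 −0.28, adjusted p = 0.0402). Where counting did not use strand, reads of such pairs cannot be told apart, and the sources used here do not give the strand setting. SNHG29 was near the threshold at −0.14 (adjusted p = 0.0724, SE 0.061), with no overlap between groups, while the interval of SNHG5, the host with the highest level, was −0.07 to 0.23.

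The remaining uncalled snoRNA hosts had estimates on both sides of 0. SNHG32, a C/D host, had the lowest of all 23, with 355, 308 and 266 reads in siNC and 230, 283 and 224 in siZEB1 (log2 −0.20, 95% interval −0.44 to 0.04, adjusted p = 0.183), a larger estimate than those of the called SNHG4 and GAS5 but with a wider interval. SNHG26 stood at −0.18 (95% interval −0.48 to 0.13), SNHG19 at −0.13 (−0.48 to 0.23), SNHG8 at −0.11 (−0.29 to 0.07) and SNHG11 at 0.14 (−0.06 to 0.35). SNHG3 (1204 to 1457 reads a culture), SNHG15 (995 to 1227), SNHG7 (1096 to 1422) and SNHG10 (298 to 339) had log2 fold changes of −0.02, −0.02, 0.03 and −0.01, with 95% intervals that reach no further than −0.20 on the lower side and 0.22 on the upper side. SNHG17, host of H/ACA snoRNAs, had 2117, 2232 and 2303 reads in siNC and 2229, 2288 and 2196 in siZEB1, log2 0.14 (95% interval −0.01 to 0.30, adjusted p = 0.133), and it was called when siNC replicate 3, its highest control, was left out. SNHG16 had groups that did not overlap, 77.9 ± 2.99 CPM in siNC and 71.6 ± 0.991 in siZEB1, yet missed the threshold (log2 −0.12, adjusted p = 0.144). SNHG9, the host with the fewest reads (5 to 13 a culture), had an interval of −1.07 to 0.77, too wide to place it.

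Over all genes tested, 18.8% were higher and 21.0% were lower. Sorted by the snoRNA they carry, 2 of 10 hosts of C/D snoRNAs were higher and 0 were lower, with a median log2 fold change of −0.04. A difference between the kinds was not tested. Of 9 hosts of H/ACA snoRNAs 0 were higher and 1, SNHG4, was lower, with a median of −0.02. SNHG12, with both kinds, was higher, as was SNHG20 of the 2 hosts of a Cajal body guide RNA. These counts follow the annotation used, GENCODE 29, which draws no snoRNA inside GAS5. GAS5, a known snoRNA host that was called higher, is therefore left out of them.

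**Figure D3:**
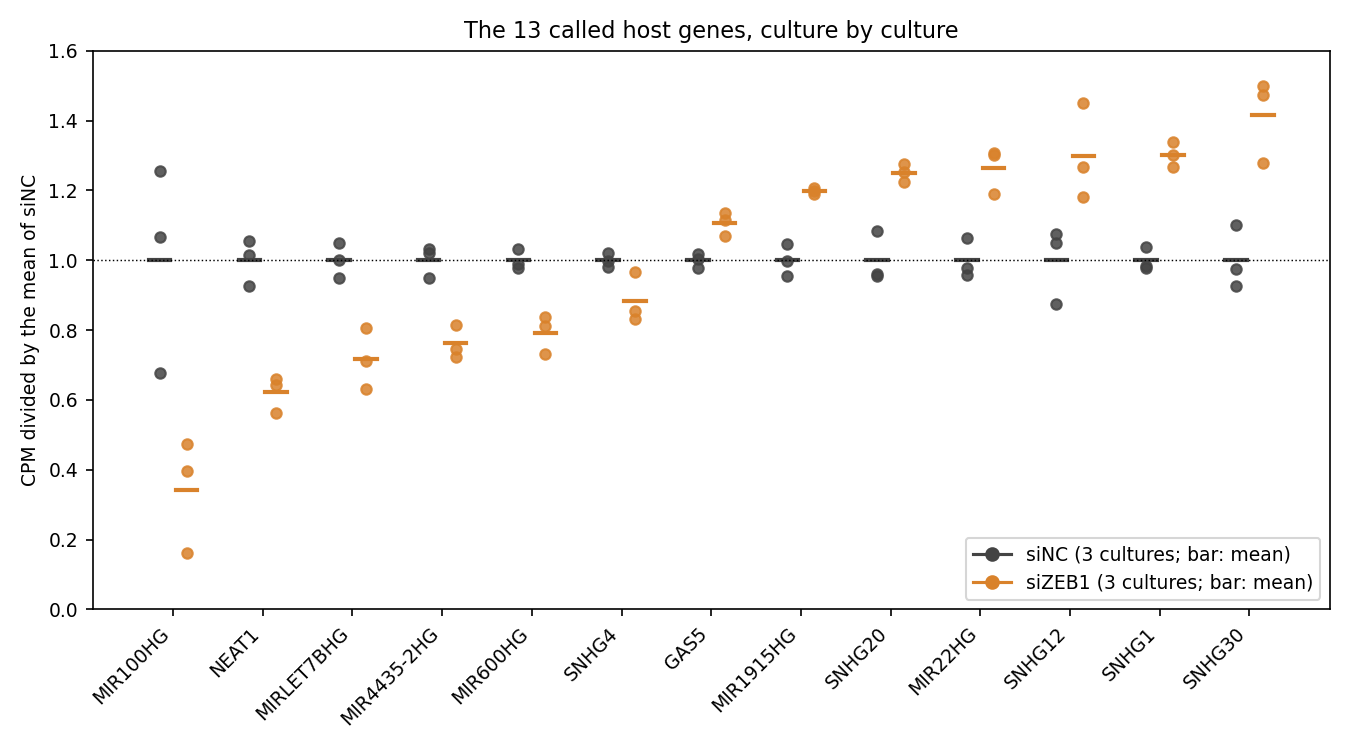
Level of the 13 called members in each culture, as CPM divided by the mean of the 3 siNC cultures (y axis, from 0), with siNC cultures in dark grey, siZEB1 cultures in orange and a bar for each mean. In all 13 genes the points of the groups do not overlap, and SNHG4 and GAS5 show the smallest gaps.

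MIR100HG (chr11:122028327-122556721, minus strand) is the long host of the microRNA-100, let-7a-2 and microRNA-125b-1 hairpins shown above, and had 15, 10 and 16 reads in siNC and 2, 6 and 5 in siZEB1. Its level was 0.660 ± 0.195 CPM in siNC and 0.226 ± 0.107 in siZEB1, with a log2 fold change of −1.50 (adjusted p = 0.0214, SE 0.491). It passed the read filter only through siNC, where it was high, so that its test carries little weight and its values are given as a description. Without siNC replicate 1, siNC replicate 3 or siZEB1 replicate 1 the call was lost, with adjusted p values up to 0.100.

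MIRLET7BHG (chr22:46053869-46113928, plus strand) hosts let-7a-3 and let-7b, whose mature forms share the let-7 seed. Its reads were 305, 291 and 264 in siNC and 163, 212 and 186 in siZEB1. The gene fell from 13.7 ± 0.669 to 9.79 ± 1.20 CPM, log2 −0.48 (adjusted p = 0.00205, SE 0.110), and the highest siZEB1 culture lay below the lowest siNC culture. MIR4458HG, whose microRNA has the same seed, had 206, 202 and 155 reads against 177, 199 and 182, and its log2 fold change was 0.13 (95% interval −0.11 to 0.37, adjusted p = 0.403).

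MIR4435-2HG (chr2:111036776-111523376, minus strand), a long host gene with many exons, had 2160, 2298 and 1820 reads in siNC and 1403, 1382 and 1553 in siZEB1. It fell from 99.5 ± 4.46 to 75.8 ± 4.80 CPM, log2 −0.39 (adjusted p = 0.000199, SE 0.069), without overlap. CYTOR, a near-identical copy elsewhere on the chromosome, fell too, from 46.3 ± 3.54 to 29.8 ± 1.84 CPM (log2 −0.64, adjusted p = 7.50e-06). How reads that match both copies were counted is not given in the sources used here, so the values of the 2 genes are uncertain apart from each other.

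MIR600HG (chr9:123109494-123115477, minus strand) is a single-exon gene that lies inside STRBP on the same strand. It had 201, 209 and 190 reads in siNC and 146, 134 and 153 in siZEB1, or 9.54 ± 0.274 against 7.57 ± 0.533 CPM, with a log2 fold change of −0.33 (adjusted p = 0.0252, SE 0.112). STRBP, an RNA-binding protein gene, fell much further, from 87.5 ± 2.78 to 24.9 ± 0.311 CPM (log2 −1.81, adjusted p = 3.62e-12). The part of STRBP transcripts in the count of MIR600HG was not tested. Leaving out siNC replicate 2 or 3 or siZEB1 replicate 1 or 2 ended the call of MIR600HG, with adjusted p values up to 0.107.

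MIR22HG and MIR1915HG were the microRNA hosts called higher. MIR22HG (chr17:1711493-1717174, minus strand), a gene known to respond to stress signals, carries microRNA-22 and had 785, 897 and 696 reads in siNC and 925, 861 and 943 in siZEB1. It rose from 37.7 ± 2.10 to 47.7 ± 2.52 CPM, log2 0.34 (adjusted p = 0.00158, SE 0.075), while WDR81, which starts 651 bp away on the opposite strand, fell (log2 −0.25, adjusted p = 0.0101). MIR1915HG (chr10:21492658-21497262, minus strand), which GENCODE 29 lists as the protein-coding gene CASC10, had 751, 756 and 713 reads in siNC and 805, 808 and 810 in siZEB1. Its log2 fold change was 0.26 (adjusted p = 0.00780, SE 0.072), and the adjusted p was 0.0514 without siNC replicate 2.

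Of the hosts not called, MIR17HG, which carries the microRNA-17 to microRNA-92a cluster, had 136, 137 and 135 reads in siNC and 108, 159 and 169 in siZEB1. The siZEB1 cultures lay on both sides of siNC, and the log2 fold change was 0.23 (95% interval −0.09 to 0.55, adjusted p = 0.246). Without siZEB1 replicate 1, the lowest of them, it was 0.40 and passed (adjusted p = 0.0399).

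MIR205HG, the host of the epithelial microRNA-205, had 14, 7 and 11 reads against 10, 4 and 2, log2 −0.85 (95% interval −2.00 to 0.30, adjusted p = 0.232). Its value rests on single cultures: it was −1.67 (adjusted p = 0.0615) without siZEB1 replicate 1 and −0.46 without siZEB1 replicate 3. MIR29B2CHG, like MIR100HG, passed the filter only through siNC, with 10, 13 and 13 reads there and 4, 7 and 4 in siZEB1, and it missed the threshold (log2 −1.11, adjusted p = 0.0638, SE 0.458). Both of its microRNAs, microRNA-29b and microRNA-29c, share a seed. Of the 6 members tested that had under 50 reads in every culture, 1 was called, against 12 of the 37 with more reads.

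The other microRNA hosts tested were not called either. MIR924HG had the highest estimate of these, with 61, 57 and 44 reads in siNC and 56, 73 and 69 in siZEB1, or 2.56 ± 0.293 against 3.46 ± 0.435 CPM (log2 0.43, adjusted p = 0.0747, SE 0.184), and its groups did not overlap. MIR503HG, which carries microRNA-503 on the X chromosome, had 166, 206 and 188 reads against 137, 133 and 169 (log2 −0.22, 95% interval −0.49 to 0.06). MIR222HG, host of microRNA-221 and microRNA-222, which share a seed, had 52, 44 and 44 reads against 47, 29 and 46 (log2 −0.06, 95% interval −0.54 to 0.42). MIRLET7A1HG had 92 to 117 reads a culture and an estimate of 0.18 (adjusted p = 0.336), and 78.7% of its exon length lies opposite exons of another gene. MIR181A2HG, MIR193BHG, MIR3936HG and MIR4453HG had at most 56 reads in a culture and intervals that include 0.

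NEAT1 and MALAT1 are neighbours on chromosome 11, and of the pair NEAT1 was called lower and MALAT1 was not called. NEAT1 (chr11:65422774-65445540, plus strand) had 5453, 5239 and 5137 reads in siNC and 2683, 3118 and 3191 in siZEB1. The siNC cultures stood at 234.0 to 266.4 CPM and the siZEB1 cultures at 142.1 to 166.7 CPM, with means of 252 ± 16.6 and 157 ± 13.1 CPM. The log2 fold change was −0.68 (adjusted p = 6.49e-07, SE 0.070), a fall of 37.7%, and it stayed between −0.73 and −0.62 when any culture was left out.

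MALAT1 (chr11:65497688-65506516, plus strand) had 4068, 3975 and 2683 reads in siNC and 2703, 2861 and 3887 in siZEB1. Its groups overlapped fully: siNC replicate 3 lay with the lower siZEB1 cultures at 139.2 CPM, and siZEB1 replicate 3 was the highest of all at 203.1 CPM. The log2 fold change was −0.04 (95% interval −0.28 to 0.21, adjusted p = 0.831), and it turned positive when siNC replicate 1, siZEB1 replicate 1 or siZEB1 replicate 2 was left out. The difference between the responses of the 2 genes was not tested itself.

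**Figure D4:**
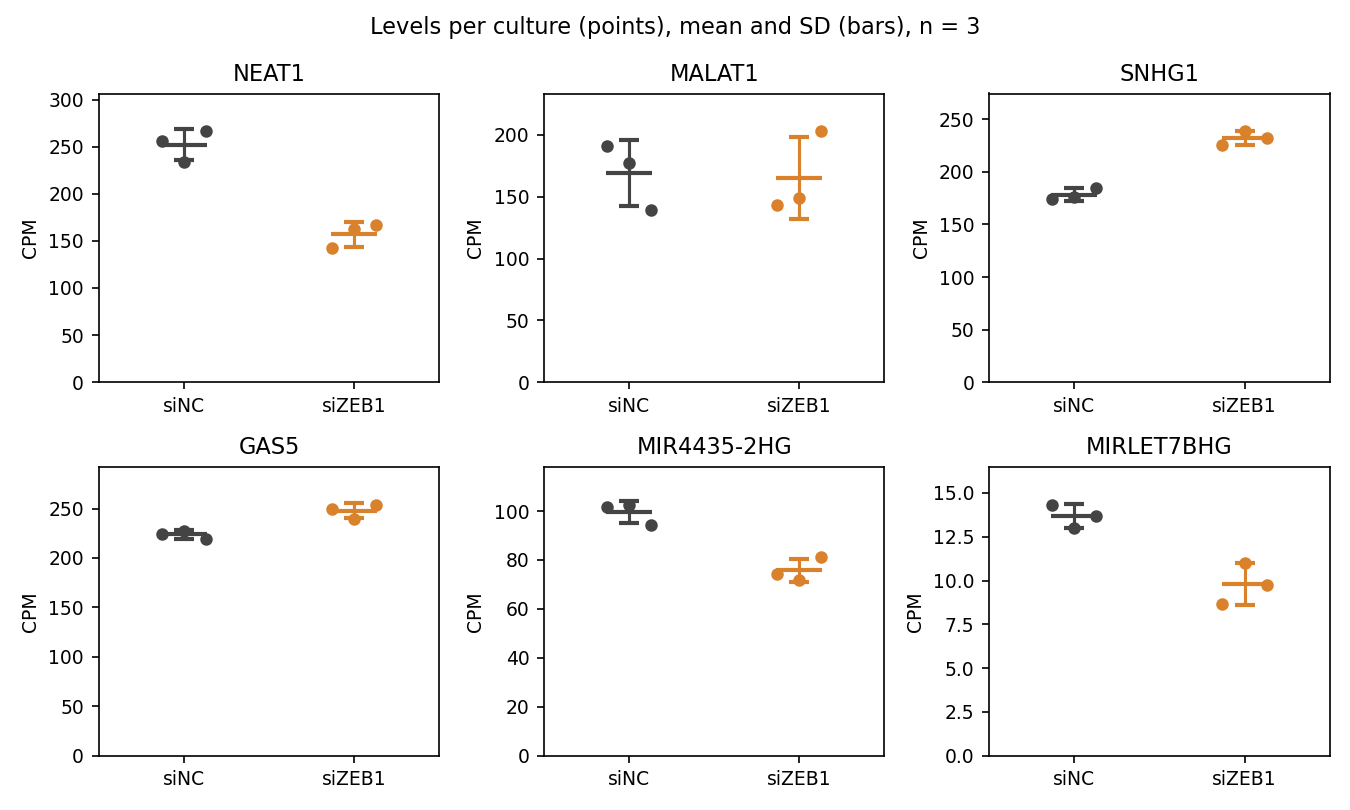
CPM (y axis, from 0) of 6 members in each culture, with points for the 3 siNC cultures in dark grey and the 3 siZEB1 cultures in orange, long dashes for means and bars for 1 SD. NEAT1 falls from 252 to 157 CPM, while the MALAT1 cultures of the groups overlap.

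Members below the filter included the chromosome 12 host of the microRNA-200 family. MIR200CHG (chr12:6963246-6964447, plus strand), host of microRNA-200c and microRNA-141, had 0, 1 and 0 reads in siNC and 0, 0 and 0 in siZEB1. A count of 0 over the 3 siZEB1 libraries allows up to 3 reads, or 0.0522 CPM, by counting error alone. A rise above that level was thus not seen, and a fall or a smaller rise was not detectable at this depth. MIR34AHG, host of the p53-induced microRNA-34a, had 0, 1 and 0 reads against 1, 1 and 4, and MIR31HG had 0, 1 and 1 against 0, 0 and 1. In all, 13 of the 32 members below the filter had no more than 2 reads in any culture.

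The libraries say little about the small RNAs themselves. GENCODE 29 places 50 snoRNA or Cajal body guide genes inside the tested members, of which 9 were listed in the count tables, with 763 reads over all 6 cultures, and 369 of these lay on SNORA73B alone. Of 34 microRNA genes inside tested members, 7 were listed, with 68 reads in all, 41 of them on MIR1915. All snoRNA rows of the tables together took 0.00340% to 0.00473% of the reads. All of the listed small RNA genes inside tested members lie in introns. None of the 33 snoRNA or Cajal body guide genes and 18 microRNA genes that overlap exons of their hosts was listed. Reads on these could be part of the host count or dropped, which was not tested. The values above are thus of host genes as counted, and no value of a mature microRNA or a processed snoRNA follows from them.

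E-box letters of the kind ZEB1 is known to bind, CAGGTG or its reverse complement CACCTG on the gene's strand, occurred between 250 bases before and 50 bases after the start in 24.1% of the 27305 genes with a window. They occurred in 5 of 20 snoRNA hosts (25.0%) and 5 of 17 microRNA hosts (29.4%). Among called members with a window, 2 of 7 that were higher and 1 of 5 that were lower held them. The lower member is MIR100HG, where the window with the letters is that of a start inside the gene. Along the minus strand that start lies past the microRNA-100 and let-7a-2 hairpins, so a transcript from it would not include these. The matches in the higher members GAS5 and SNHG1, in 1 of the 6 windows of the lower member MIR100HG, and in MIR200CHG are shown with the letters in capitals, which start 195, 164, 225 and 78 bases before the start; a match describes letters only.
GAS5 (chr1:173869223-173869252, minus strand): atagttacaccaCACCTGaaacttcaggaa
SNHG1 (chr11:62856032-62856061, minus strand): gcgccgcaagttCAGGTGgcgctttgtcta
MIR100HG (chr11:122102437-122102466, minus strand): cacaaaatccatCACCTGcactcatacatg
MIR200CHG (chr12:6963155-6963184, plus strand): ggcaggaggacaCACCTGtgcgcagggtgg

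Genes that work with the hosts were counted by list, without a test of any list as a set. Of all genes tested, 39.8% were called (18.8% higher and 21.0% lower). Of 19 core and assembly proteins of snoRNA particles, 4 were higher and 5 were lower (47.4% called), with a median log2 fold change of 0.05. NOLC1, a nucleolar chaperone of these particles, rose from 249 ± 7.66 to 844 ± 4.69 CPM (log2 1.76, adjusted p = 4.18e-13), while NOP10 (log2 −0.53, adjusted p = 3.39e-05) and NHP2 (log2 −0.47, adjusted p = 0.000149), subunits of the H/ACA particle, fell. Of the other H/ACA core subunits, DKC1, the pseudouridine synthase, rose (log2 0.37, adjusted p = 1.56e-05), and GAR1 was not called (log2 0.05, adjusted p = 0.645). Protein-coding genes that host snoRNAs, mostly ribosomal protein and translation factor genes, numbered 39. Of these, 7 were higher and 2 lower (23.1% called), with a median of 0.05. EIF4A2 (log2 0.39, adjusted p = 2.07e-05), DKC1 with the value above and EEF1B2 (log2 −0.36, adjusted p = 0.000105) moved most. The RPL17, PPAN and EIF4A1 entries had few reads, with means of 1.46, 4.02 and 5.85 CPM in siNC, and were not called. Whether reads of these genes were assigned elsewhere was not tested.

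Of 15 factors of nonsense-mediated decay, 5 were higher and 4 were lower (60% called, against 39.8% of all genes tested), with a median of 0.13. Exon junction proteins led both directions, with RBM8A at 0.74 (adjusted p = 1.01e-06) and CASC3 at 0.35 (adjusted p = 0.000311) above MAGOH at −0.48 (adjusted p = 0.000367). Of 12 tested genes of microRNA biogenesis, 1 was higher and 3 were lower (33.3% called), with a median of −0.09. DROSHA, the nuclear hairpin nuclease, rose (log2 0.36, adjusted p = 0.000334), and XPO5, the exporter of hairpins (log2 −0.33, adjusted p = 0.000150), and DICER1 (log2 −0.26, adjusted p = 0.0269) fell.

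Among 20 paraspeckle and nuclear speckle proteins, 5 were higher and 7 were lower (60% called, against 39.8% of all genes tested), with a median of −0.01. The uncalled MATR3 entry in this list is the one with few reads described beside SNHG4. RNPS1, a speckle splicing activator (log2 0.68, adjusted p = 7.50e-08), and METTL16, an RNA methyltransferase that binds MALAT1 (log2 0.40, adjusted p = 0.000186), rose, and RBM14, a paraspeckle protein, fell (log2 −0.37, adjusted p = 0.000174). Protein-coding genes that start within 5000 bp of a tested member numbered 11 among tested genes. Of these, 2 were higher and 3 lower (45.5% called), with a median of 0.03. Of 5 tested noncoding genes linked to microRNAs outside the naming rule, 2 were higher and 1 lower (60% called), with a median of −0.11. DLEU2, host of microRNA-15a and microRNA-16-1, rose from 4.27 ± 1.07 to 8.28 ± 0.937 CPM (log2 0.96, adjusted p = 0.000192). FTX rose (log2 0.29, adjusted p = 0.0334) and CYTOR fell as given above.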

How the data were processed

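RNA of 6 SW480 cultures was sequenced on an Illumina instrument. The deposited files hold raw read counts per gene, 1 file a culture, made by the authors; their processing notes name Trimmomatic, HISAT2, SAMtools, featureCounts and hg38, with no versions, and library selection, strand setting and treatment of shared reads are not given in the sources used here. Counts of genes with 10 or more reads in at least 3 cultures were tested with edgeR 4.0.16 (TMM scaling, quasi-likelihood test, two-sided, Benjamini-Hochberg adjustment over 15187 genes) in R 4.3.3, called at an adjusted p under 0.05, and the scripts were tested on simulated data. CPM of tested genes use TMM library sizes, while marker sums and floors use the total reads in genes. SE is the log2 fold change over the root of F, and floors for 0 cover counting error only. Alternatives were DESeq2 1.42.0, other scalings, filters and thresholds, a replicate block and each culture left out. All 75 members matched GENCODE 29 (GRCh38) by identifier, and promoters and microRNAs came from RefSeq. Members and lists were chosen with earlier results of these data known. Named in full were the 12 called members with the largest change, a fixed set of well-known hosts, up to 3 called genes a list and ZEB1; overlapping or neighbouring partners and the other members given values were chosen after their values were seen.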

Additional observations from a re-analysis of the deposited data

How the results depend on the processing

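Over 13 refits, 7 of the 13 called members (NEAT1, MIRLET7BHG, MIR4435-2HG, MIR22HG, SNHG1, SNHG12 and SNHG30) kept direction and call in all 13, and the other 6 kept their direction but lost the call in at least 1; MIR100HG and MIR29B2CHG gave no value under 2 stricter read filters (10 reads in every culture and filterByExpr), which they do not pass. The count of members called lower, 6, was 3 with DESeq2 and 3 with an adjusted p under 0.01. A fold above 1.5 and an unadjusted p under 0.05 also gave 3, but a different set, NEAT1, MIR100HG and MIR29B2CHG. Under that rule 0 members were higher, and 1088 genes were higher and 1423 lower in the whole table against 2858 and 3194 as reported. Leaving out 1 culture gave 3 to 6 members lower and 5 to 7 higher. Of the 30 members not called, 3 gained a call when 1 culture was left out: SNHG5 without siZEB1 replicate 3, SNHG17 without siNC replicate 3 and MIR17HG without siZEB1 replicate 1. Signs turned in 9 members not called when cultures were left out, with log2 ranges of −0.52 to 0.14 for SNHG9, −0.19 to 0.14 for MIR222HG, −0.21 to 0.059 for MALAT1, −0.061 to 0.032 for SNHG15, −0.071 to 0.050 for SNHG3, −0.045 to 0.039 for SNHG10, −0.042 to 0.12 for SNHG7, −0.043 to 0.25 for MIR193BHG and −0.32 to 0.47 for MIR3936HG; SNHG10 was also at 0.00036 with DESeq2 and 0.00059 with median-of-ratios scaling. The cause of these changes was not tested, beyond fewer samples or genes. The cultures share replicate numbers, but same-numbered cultures did not deviate together (correlations −0.047, −0.086 and −0.188), so the numbers were not taken as pairs; with the replicate block 6 members were higher and 4 lower, and 2299 and 2679 genes in the whole table.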
